A study of Mus musculus with 8 samples.

Results

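The 8 genes described here mark the maturation of monocytes into tissue macrophages: Adgre1, Maf, Cd63, Cd9, Cd81, Ms4a7, Folr2 and Selenop. They were chosen by name, with earlier results of these data known. Each was read from a probe set that the platform annotation ties to that symbol alone, and where a gene had more than 1 such probe set, as Cd9 and Maf did, the brightest on average over the 8 arrays was kept. All 8 were found among 22180 measured genes.

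The cells were CD45+ CD11b+ Ly6Chi inflammatory monocytes and macrophages, sorted from subcutaneous tumours of female C57BL/6 mice that were 8 weeks old. Every tumour was grown for 14 days from cell line 152, a single pancreatic cancer line derived from a mouse with the KrasLSL-G12D/+ and Trp53LSL-R172H/+ alleles and Pdx1-Cre, a recombinase driven by a pancreatic promoter. The host mice carry no allele named in the labels. In 4 mice the tumour received 20 Gy with a small animal irradiator, and in the other 4 it was sham-treated. Tumours of both kinds were taken out 1 day after treatment. RNA of each mouse was hybridised to 1 Affymetrix array, and the values are log2 expression levels.

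A Ly6C-high monocyte that leaves the blood and stays in a tissue gradually loses its monocyte genes and gains those of a macrophage. The transcription factor c-MAF, encoded by Maf, drives part of that programme. Adgre1 encodes F4/80, the classical surface marker of mouse macrophages. Cd63, Cd9 and Cd81 encode tetraspanins, membrane proteins that organise other receptors and endosomes into patches, and they are also made by other cell types, among them B cells and stromal cells. Ms4a7 encodes a membrane protein typical of mature and tumour-associated macrophages, Folr2 the beta folate receptor of resident macrophages, and Selenop a secreted selenium carrier.

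The array medians lay between 4.68 and 4.73, and the arrays correlated at 0.976 to 0.988 over all probe sets. Of the sort markers, Ptprc, the gene of CD45, lay between 11.50 and 11.71 on the 8 arrays, Itgam, the gene of CD11b, between 10.68 and 11.28, and Ly6c2, a Ly6C gene, between 10.77 and 12.45. Ly6c1, the other Ly6C gene, lay between 2.43 and 3.22. The members were all above 4.70, the median of all probe sets, on average. Sham mice 2 and 3 stood apart by the highest mean of T and NK cell markers. Sham mouse 3 also had the highest mean of neutrophil genes, but these genes were not alike. Camp and Ngp stood at 10.10 and 10.08 in sham mouse 3 and at 8.02 and 7.78 in sham mouse 2. Csf3r was lowest in sham mouse 3, at 8.07. Ngp and Csf3r were named after their values were seen. Differences are also given without sham mice 2 and 3.

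Promoter windows were searched for short motifs from the binding sites of 2 myeloid regulators, because Maf is itself one of the 8 genes. RefSeq (GRCm38.p6) gave 10 windows for 6 of the members, each running from 250 bases before to 50 bases after an annotated start: Cd63, Cd81 and Cd9 have 1 window each, Folr2 and Ms4a7 have 2 each, and Selenop has 3. The motif TGCTGA is a part of the Maf recognition element, not the whole of it. Read on both strands, it was in both Folr2 windows and in no other of the 10. It is in 19.5% of all 32851 windows of this length. The core GAGGAA of PU.1, the main transcription factor of the myeloid lineage, was in 4 windows, those of Cd63, 1 of Ms4a7 and 2 overlapping ones of Selenop, against 28.3% of all windows. The letters of the 2 motifs do not overlap in these windows. The windows of Cd9 and Cd81 held neither. The 250 bases before both starts of Folr2 (minus strand) and before the start of Cd63 (plus strand) are given 5′ to 3′. The Maf motif TGCTGA is in capitals in the Folr2 sequences. PU.1 cores (GAGGAA, or its reverse complement TTCCTC) are in capitals in the Cd63 sequence. A match is a description of the letters and does not show binding.
Folr2, chr7:101857191-101857440: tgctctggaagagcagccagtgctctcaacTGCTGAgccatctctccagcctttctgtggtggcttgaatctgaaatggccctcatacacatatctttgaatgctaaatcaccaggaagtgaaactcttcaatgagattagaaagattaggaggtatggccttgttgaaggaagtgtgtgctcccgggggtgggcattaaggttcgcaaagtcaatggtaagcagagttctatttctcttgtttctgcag
Folr2, chr7:101845332-101845581: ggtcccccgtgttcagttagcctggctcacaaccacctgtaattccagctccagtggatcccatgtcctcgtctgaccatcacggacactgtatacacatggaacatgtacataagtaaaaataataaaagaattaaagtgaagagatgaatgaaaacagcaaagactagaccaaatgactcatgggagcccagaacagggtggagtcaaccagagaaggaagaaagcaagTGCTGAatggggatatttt
Cd63, chr10:128909095-128909344: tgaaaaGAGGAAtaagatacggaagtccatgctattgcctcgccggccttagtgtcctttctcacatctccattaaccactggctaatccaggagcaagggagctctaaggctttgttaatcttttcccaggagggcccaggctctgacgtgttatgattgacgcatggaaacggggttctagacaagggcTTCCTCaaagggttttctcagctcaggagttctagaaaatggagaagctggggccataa

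The comparison asked how the levels of these genes in tumour monocytes and macrophages differed 1 day after irradiation of the tumour. None of the 8 genes differed beyond the spread between mice, although 7 of them had a higher mean in irradiated mice. The largest difference was that of Maf, 0.80 ± 0.45 (SE) on the log2 scale, and the one gene with a lower mean was Selenop (-0.22 ± 0.17). For all 8 genes the difference was smaller than the pooled SD of the mice within a group, and the groups overlapped. The mice differed from one another in a shared way, with high and low mice in both groups: sham mouse 3 and irradiated mouse 4 were low, and sham mouse 4 and irradiated mouse 3 high, for nearly every member.

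By limma's moderated test over all 22180 genes, 0 members passed an adjusted p of 0.05, where 0.0% of all genes did (0 genes; smallest adjusted p = 0.545). At an unadjusted p under 0.05 there were 0 members too, against 6.07% of all genes, 2.05% on the higher and 4.03% on the lower side. The groups did not overlap for 0 members, against 3.68% of all genes. A difference above 0 was found for 7 of 8 members and for 42.2% of all genes; the members' median difference was 0.11 and that of all genes -0.03. The count of 7 fell to 4 without sham mouse 3 or without irradiated mouse 3, to 5 without sham mouse 2 and to 6 without irradiated mouse 2. The 95% interval reached 0.62 to either side in the median member and 0.30 in the median of all genes, so a smaller difference in a typical member could not be told from 0; the number of arrays, 4 per group, limits the precision. In bulk samples, fewer macrophages in a sort and less of a transcript per cell cannot be told apart.

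**Figure D1:**
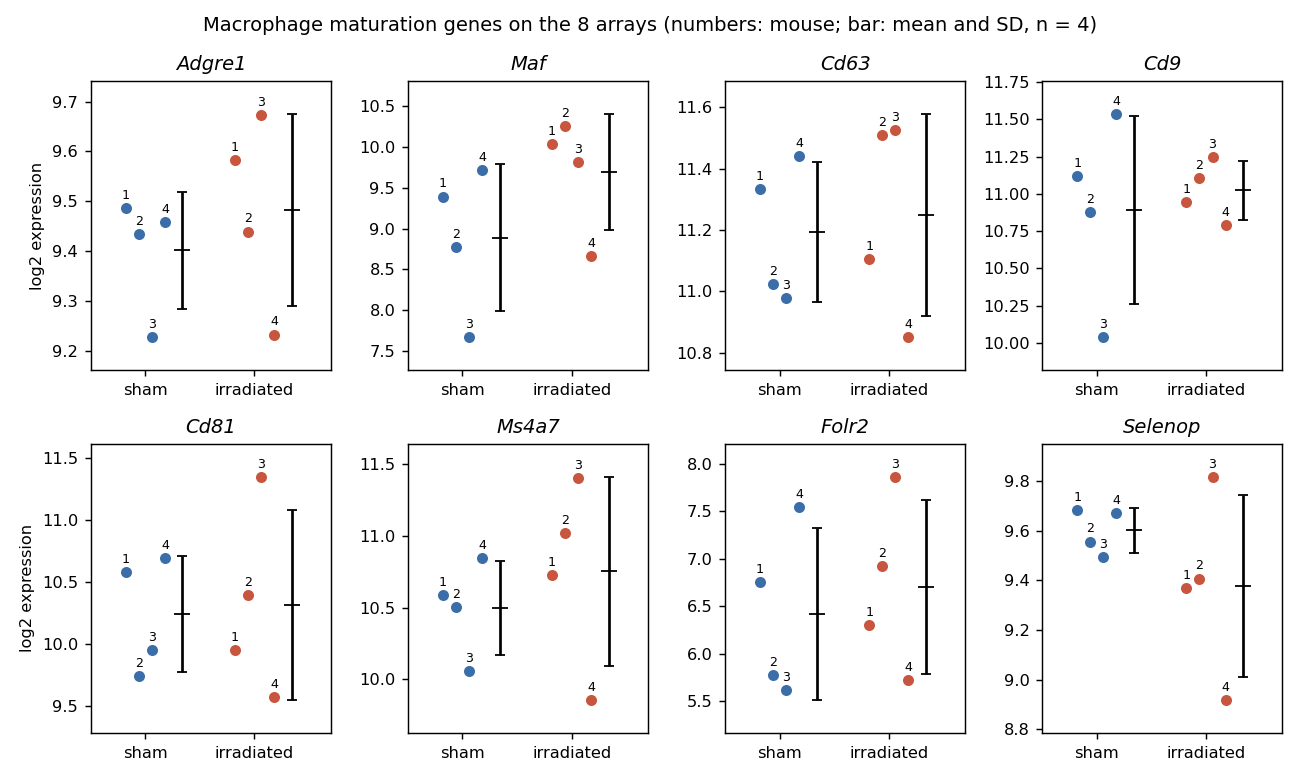
Level of each of the 8 maturation genes (log2 expression, vertical axis, a separate scale per gene) in 4 sham and 4 irradiated mice; points are single mice with their number, and the bar is the mean with its SD. The groups overlap for every gene, and irradiated mouse 4 is the lowest irradiated mouse in all 8 panels.

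Maf stood at 9.39, 8.78, 7.67 and 9.72 in sham mice 1 to 4 and at 10.03, 10.26, 9.81 and 8.66 in irradiated mice 1 to 4. Irradiated mice 1, 2 and 3 lay above every sham mouse, while irradiated mouse 4 lay below 3 of the sham mice. The means were 8.89 ± 0.90 and 9.69 ± 0.71 (SD, n = 4 each), a 1.74-fold difference with a 95% interval of 0.87 to 3.48-fold (adjusted p = 0.827 in limma). The difference was 0.40 without sham mouse 3 and 1.15 without irradiated mouse 4. A second Maf probe set with lower values ran the same way with a smaller difference, with 6.29 ± 0.32 in the sham and 6.55 ± 0.43 in the irradiated group (SD, n = 4 each), 0.26 apart. There, irradiated mice 2 and 3 lay above every sham mouse, but irradiated mouse 1 (6.65) lay below sham mouse 4 (6.70).

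Among 4 other measured factors of the MAF family, 0 had an unadjusted p under 0.05. Maff, which encodes a small MAF protein without an activation domain, differed by 0.09 ± 0.20 (SE), and Nrl, the large MAF factor of rod photoreceptors, by -0.21 ± 0.11 at levels under 4.70 on average. The differences of all 4 lay between -0.21 and 0.09, and their gap to that of Maf was not tested.

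Adgre1, the F4/80 gene, stood at 9.49, 9.43, 9.23 and 9.46 in sham mice and at 9.58, 9.44, 9.67 and 9.23 in irradiated mice. Irradiated mice 1 and 3 were above every sham mouse, and irradiated mouse 4 was as low as sham mouse 3. Its whole range over the 8 arrays was 0.45, the smallest of the 8 members, and the difference was 0.08 ± 0.12 (SE; 95% interval -0.19 to 0.35; adjusted p = 0.936 in limma). The related adhesion receptor gene Adgre4 differed by -0.19 ± 0.34, with its lowest level in irradiated mouse 3, the mouse in which Adgre1 was highest.

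High and low mice were found in both groups for the tetraspanin genes. Cd63 stood at 11.33, 11.02, 10.98 and 11.44 in sham mice and at 11.10, 11.51, 11.53 and 10.85 in irradiated mice. Irradiated mice 2 and 3 were above every sham mouse and irradiated mouse 4 below every sham mouse. The difference was 0.05 ± 0.18 (SE; 95% interval -0.34 to 0.44; adjusted p = 0.971 in limma). It turned to values between -0.038 and -0.0027 when mouse 2 or mouse 3 of either group was left out.

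Cd9 stood at 11.12, 10.88, 10.04 and 11.53 in sham mice and at 10.95, 11.11, 11.25 and 10.79 in irradiated mice. All 4 irradiated mice lay inside the range of the sham mice, whose SD of 0.63 compares with 0.20 in irradiated mice, and sham mouse 3 stood alone at the low end. The difference of 0.13 ± 0.27 (SE; 95% interval -0.46 to 0.72; adjusted p = 0.952 in limma) turned to -0.15 without sham mouse 3. Its second probe set, with lower values, differed by 0.23 and ordered the mice otherwise. It stood at 5.75, 5.56, 5.25 and 5.35 in sham mice and at 5.54, 5.88, 6.12 and 5.31 in irradiated mice. There, irradiated mice 2 and 3 lay above every sham mouse, and sham mouse 1, not sham mouse 4, was the highest sham mouse.

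Cd81 stood at 10.58, 9.74, 9.95 and 10.69 in sham mice and at 9.95, 10.40, 11.34 and 9.58 in irradiated mice. The irradiated group held both the highest and the lowest of the 8 values, and the distance between them was 3.41-fold. The difference was 0.07 ± 0.35 (SE; 95% interval -0.71 to 0.86; adjusted p = 0.979 in limma), and -0.27 without irradiated mouse 3, -0.09 without sham mouse 2 and -0.02 without sham mouse 3. Of the 15 other tetraspanin genes, all measured, 6 were higher and 9 lower with a median of -0.05; 0 had an unadjusted p under 0.05 on the higher side and 1 on the lower side. That gene was Tspan32, a tetraspanin of blood cells, which stood at 6.56, 6.55, 7.50 and 6.56 in sham and 6.33, 6.06, 6.46 and 5.76 in irradiated mice, a difference of -0.64 ± 0.23 (adjusted p = 0.819 in limma). Tspan31 had the next smallest p, with a difference of -0.21 ± 0.12.

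Ms4a7 stood at 10.59, 10.51, 10.06 and 10.84 in sham mice and at 10.73, 11.02, 11.40 and 9.86 in irradiated mice. Irradiated mice 2 and 3 were above every sham mouse, and irradiated mouse 4 was below all of them. The difference was 0.25 ± 0.29 (SE; 95% interval -0.40 to 0.91; adjusted p = 0.912 in limma); it was 0.04 without irradiated mouse 3 and 0.55 without irradiated mouse 4. Of the 16 other MS4A genes, all measured, 9 were higher and 7 lower, and 0 had an unadjusted p under 0.05. With values taken as deviations from the group means, 13 of the 16 ran against the mean of the members (median r = -0.290). By that measure 52.2% of all genes at or above the median level ran with the members. Ms4a14 ran from 4.91 in sham mouse 3 to 7.32 in irradiated mouse 3 (difference 0.72 ± 0.40, SE). Ms4a3, a gene of myeloid progenitors, stood at 6.27 in sham mouse 3 and between 4.22 and 4.64 in the other 7 mice.

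Folr2 stood at 6.75, 5.77, 5.61 and 7.54 in sham mice and at 6.30, 6.92, 7.86 and 5.73 in irradiated mice. The groups covered nearly the same range, with sham mice 2 and 3 and irradiated mouse 4 low and sham mouse 4 and irradiated mouse 3 high. The difference was 0.28 ± 0.50 (SE; 95% interval -0.83 to 1.40; adjusted p = 0.945 in limma), and -0.10 without irradiated mouse 3. Of 7 listed folate receptor and transport genes 6 were measured, of which 1 was higher and 5 lower with a median of -0.21. The reduced folate carrier gene Slc19a1 differed by -0.33 ± 0.13 (adjusted p = 0.819 in limma) and was the 1 gene of the 6 with an unadjusted p under 0.05. Slc46a1, which encodes the proton-coupled folate transporter, differed by -0.50 ± 0.23.

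Selenop stood at 9.68, 9.56, 9.49 and 9.67 in sham mice and at 9.37, 9.41, 9.82 and 8.92 in irradiated mice. Irradiated mice 1, 2 and 4 were below every sham mouse and irradiated mouse 3 above every sham mouse. The group means were 9.60 ± 0.09 for sham and 9.38 ± 0.37 for irradiated (SD, n = 4 each), and they differed by -0.22 ± 0.17 (SE; 95% interval -0.60 to 0.15; adjusted p = 0.866 in limma). Without irradiated mouse 3 the difference was -0.37 (adjusted p = 0.852 in limma), and without irradiated mouse 4 it was -0.07. Another list held 20 genes of other selenoproteins, of selenocysteine synthesis or of selenoprotein uptake, all measured. Of these, 5 were higher and 15 lower with a median of -0.06, and 1 in each direction had an unadjusted p under 0.05. Lrp8, which encodes a receptor that takes up selenoprotein P, stood between 5.60 and 5.71 in sham and between 5.83 and 5.97 in irradiated mice (difference 0.24 ± 0.09, SE; adjusted p = 0.819 in limma). Selenoh, the gene of a nucleolar selenoprotein, differed by -0.48 ± 0.20 (adjusted p = 0.819 in limma).

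**Figure D2:**
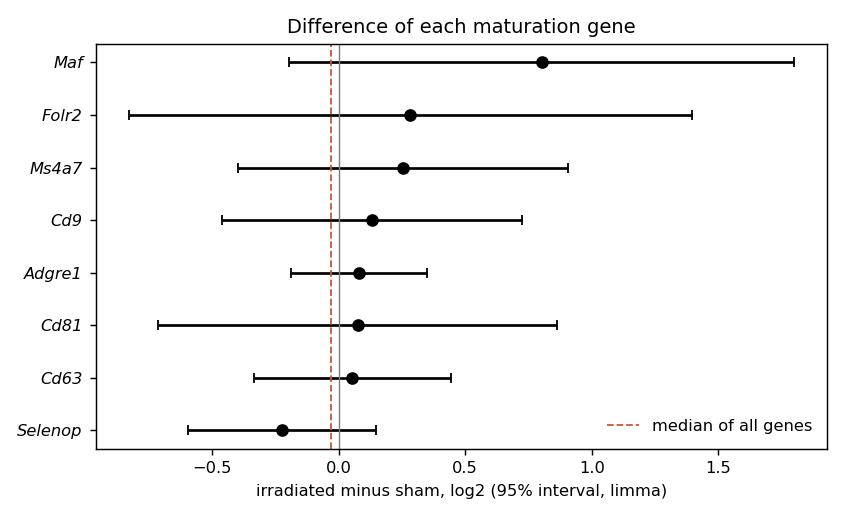
Difference of each maturation gene between irradiated and sham mice on the log2 scale (horizontal axis, irradiated minus sham), with the 95% interval of limma's moderated fit (n = 4 mice per group). The dashed line is the median of all genes at -0.03, and every interval includes 0.

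The spread between mice was wide for most of these genes. The distance between the highest and the lowest of the 8 arrays was 6.01-fold for Maf, 4.74-fold for Folr2, 3.41-fold for Cd81, 2.91-fold for Ms4a7 and 2.81-fold for Cd9. For these 5 genes it exceeded that of more than 95% of all genes. It was 1.86-fold for Selenop, 1.60-fold for Cd63 and 1.36-fold for Adgre1, and for Adgre1 only 27.9% of all genes had a smaller one. Among the 8, by the probe sets kept, the classical surface marker varied least between arrays and the transcription factor gene most. The second probe sets, with lower values, had narrower ranges, from 5.92 to 6.85 for Maf and from 5.25 to 6.12 for Cd9.

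The members varied together. In sham mouse 4 and irradiated mouse 3 all 8 lay above their own median over the 8 arrays, and in sham mouse 3 and irradiated mouse 4 all 8 lay below it. The lowest of the 8 values was in sham mouse 3 for Adgre1, Maf, Cd9 and Folr2 and in irradiated mouse 4 for the other 4. In the second probe set of Maf it was in irradiated mouse 4. Within groups, irradiated mouse 4 was the lowest irradiated mouse for 8 of 8 members and irradiated mouse 3 the highest for 7, the exception being Maf, which was highest in irradiated mouse 2. Sham mouse 3 was the lowest sham mouse for 7, the exception being Cd81, and sham mouse 4 the highest for 6, the exceptions being Adgre1 and Selenop. These counts hold for the probe sets kept. In the second probe sets, sham mouse 2 was the lowest sham mouse for Maf and sham mouse 1 the highest for Cd9. With each value taken as its deviation from the group mean, the 28 pairs of members correlated at 0.487 to 0.945 over the 8 arrays, with a median of 0.799. Over all pairs of the 12312 genes at or above the median level the median was 0.01, and 2.09% of those pairs reached 0.799. All pairs share the same 8 arrays, so these values describe these libraries.

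The 5 genes whose levels were most like the mean of the members' standardised values over the 8 arrays, out of 11109 searched, were Ctsd (Pearson r = 0.988, Spearman rho = 0.952), Pik3cb (0.980 and 0.952), Pf4 (0.973 and 0.976), Lgmn (0.971 and 1.0) and Vipas39 (0.971 and 0.952). Ctsd encodes the lysosomal protease cathepsin D and Lgmn the lysosomal protease legumain. Pf4 encodes a chemokine of platelets and macrophages, Pik3cb a catalytic subunit of phosphoinositide 3-kinase, and Vipas39 a protein of endosomal sorting. Without the 2 arrays farthest from the median, those of irradiated mouse 4 and sham mouse 3, r lay between 0.934 and 0.966 for the 5 genes. Taken singly, the most alike gene was Atp6v1d for Adgre1, Mapkapk2 for Maf, Impact for Cd63, Trem1 for Cd9, Lonrf3 for Cd81, Pld3 for Ms4a7, Hcfc2 for Folr2 and Zfp984 for Selenop, with r from 0.949 to 0.993.

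Of 30 other genes of mature macrophages 28 were measured, and 16 were higher and 12 lower in irradiated mice with a median of 0.03; 1 had an unadjusted p under 0.05 on the higher side and 2 on the lower side. The fractalkine receptor gene Cx3cr1 stood at 9.93, 9.22, 9.31 and 9.58 in sham and 8.79, 9.23, 9.32 and 9.10 in irradiated mice, a difference of -0.40 ± 0.17 (SE; adjusted p = 0.819 in limma). Vsig4, a complement receptor gene of resident macrophages, differed by -0.21 ± 0.09 at levels between 2.81 and 3.23, well under the median of all probe sets. The 1 on the higher side, named after its values were seen, was the sialoadhesin gene Siglec1 at 0.55 ± 0.25. Their deviations from the group means ran in the direction of the members' for 26 of 28 genes (median r = 0.774), against 52.2% of all genes at or above the median level. Their list mean was 8.15, 7.83, 7.73 and 8.30 in sham mice and 8.11, 8.27, 8.31 and 7.79 in irradiated mice, with sham mouse 3 and irradiated mouse 4 lowest in their groups as for the 8 members.

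Genes of freshly recruited Ly6C-high monocytes went the other way between mice. Of 16 listed genes 14 were measured, and the deviations of 13 ran against those of the members (median r = -0.466), the exception being Gsr, named after its values were seen. Their list mean was lowest in irradiated mouse 3, at 10.72, and lay between 11.02 and 11.37 in the other 7 mice. Between the groups, 0 of the 14 had an unadjusted p under 0.05, and the median difference was -0.04. Hp, the haptoglobin gene, differed by -0.33 ± 0.19 (SE).

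**Figure D3:**
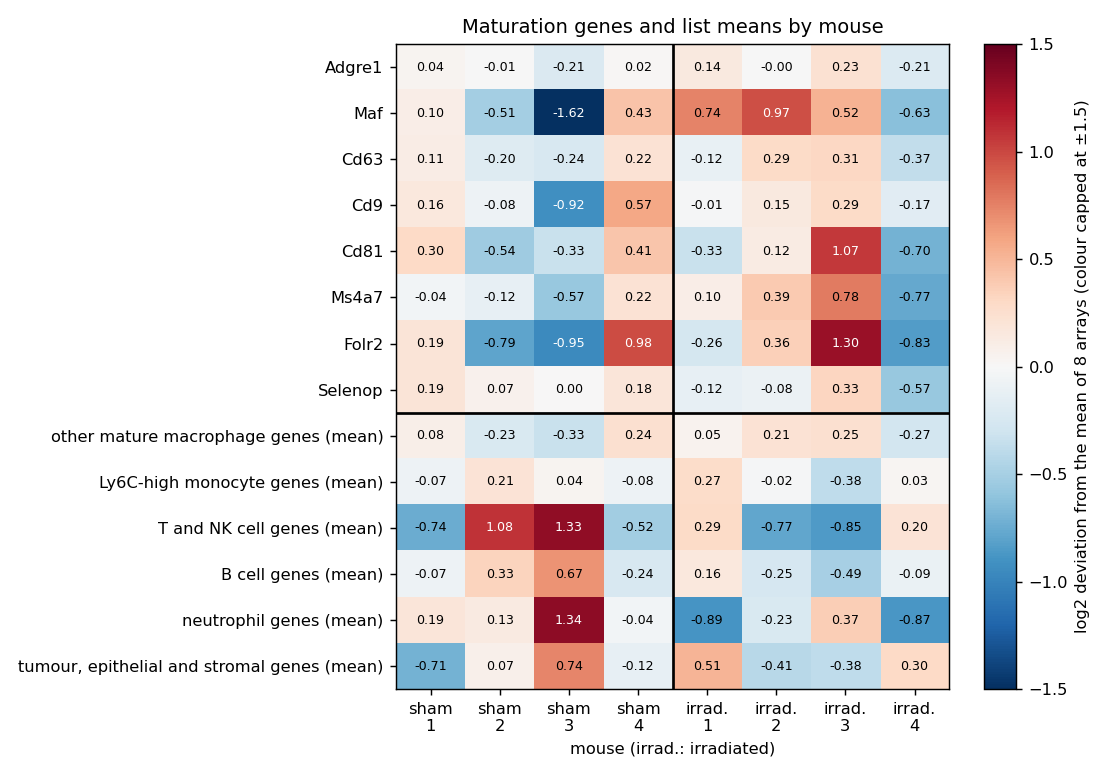
Deviation of each maturation gene, and of the mean of 6 gene lists, from its own mean over the 8 arrays (log2, colour and printed number) for each mouse; the vertical line parts sham from irradiated mice and the horizontal line parts members from list means. The lowest value of every member is in sham mouse 3 or irradiated mouse 4, and the T and NK cell mean is highest in sham mice 2 and 3.

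Markers of other cell types differed between mice along the same line. The mean of 25 measured T and NK cell genes, of 32 listed, was 5.45, 7.27, 7.52 and 5.67 in sham mice and 6.48, 5.42, 5.34 and 6.39 in irradiated mice, and the mean of the 8 members was 9.87, 9.46, 9.13 and 10.11 against 9.75, 10.01, 10.34 and 9.20. The mice with lower T and NK markers, sham 1 and 4 and irradiated 2 and 3, thus had the higher maturation levels. Only 2 of the 25 genes had a mean under 4.70; Cd3d, a chain of the T cell receptor complex named after its values were seen, ran from 5.70 in sham mouse 1 to 10.14 in sham mouse 3. Deviations of all 25 ran against those of the members, as did those of 10 of 11 B cell genes and 12 of 13 tumour, epithelial and stromal genes. The last list had a mean between 5.99 and 7.44 in sham mice and between 6.29 and 7.21 in irradiated mice. Neutrophil genes were mixed, with 8 of 15 running against the members. Their mean was highest in sham mouse 3 at 8.44, where Camp and Ngp were highest and Csf3r lowest of the 8 arrays. Of 11 measured dendritic cell genes 6 ran against the members. Between the groups, 23 of 25 T and NK cell genes were lower in irradiated mice (median difference -0.44), as were 13 of 15 neutrophil genes (-0.75), 8 of 11 B cell genes (-0.32), 8 of 11 dendritic cell genes (-0.13) and 7 of 13 tumour, epithelial and stromal genes (-0.0049), where 1 gene in each of the first 4 lists and 0 in the last had an unadjusted p under 0.05. Of all 22180 genes, 12812 were lower in irradiated mice, a share near that of the last list. An unadjusted p under 0.05 in limma was found for 6.07% of all genes. The part of the B cell, stromal and neutrophil transcripts in the members' differences was not tested.

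With the mean of the T and NK list entered as a covariate, 3 of the 8 members remained higher in irradiated mice, and the differences were 0.40 for Maf, 0.03 for Adgre1, 0.03 for Ms4a7, -0.10 for Cd63, -0.12 for Cd9, -0.25 for Cd81, -0.23 for Folr2 and -0.32 for Selenop. The members' median difference was then -0.11. Sham mice 2 and 3 also had the lowest member means of the sham group, so leaving them out raises the sham level; without them the differences were 0.14 for Maf, 0.01 for Adgre1 and 0.04 for Ms4a7, and between -0.45 and -0.14 for the other 5, with a median of -0.22 over the members. In neither setting did a member pass (smallest adjusted p = 0.708 and 0.788 in limma). With the covariate the sign of Cd63, Cd9, Cd81 and Folr2 turned and that of Maf, Adgre1, Ms4a7 and Selenop did not. The sign of Cd63, Cd81 and Folr2 also turned without irradiated mouse 3 alone, a mouse with low T and NK markers.

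**Figure D4:**
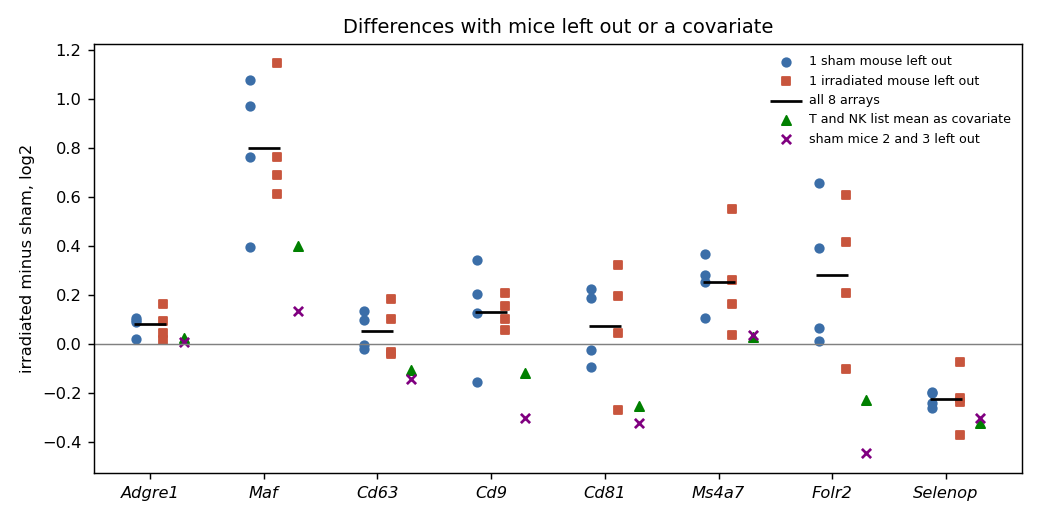
Difference of each maturation gene, irradiated minus sham on the log2 scale (vertical axis), with all 8 arrays, with 1 mouse of either group left out, with the mean of the T and NK list entered as a covariate, and without sham mice 2 and 3. Cd63, Cd9, Cd81 and Folr2 have points on both sides of 0, while Maf, Adgre1 and Ms4a7 stay above and Selenop below it.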

How the data were processed

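Expression was measured on 8 Affymetrix arrays, 1 per mouse, from 25 ng of total RNA amplified by ribo-SPIA, per the labels' protocols. The values deposited by the authors run from 1.89 to 13.15 and were taken as log2. RMA and Partek are named for them, per the submitters' processing notes; their settings are not stated. Groups came from the sample titles. Of 34365 probe set rows, 23521 had 1 gene symbol in the platform annotation, 1814 several and 9030 none. The single-symbol rows gave 22180 genes; 1082 of these had more than 1 row and were read from the brightest. Current symbols came from RefSeq's GRCm38.p6 table. Dim genes were kept, and no detection calls or scan dates were used.

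The treatment difference was fitted by limma 3.58.1 in R 4.3.3 with lmFit and eBayes. Its two-sided p-values were adjusted by Benjamini-Hochberg over every gene, with 0.05 as the threshold, and the fit was tested on simulated data. Likeness is Pearson's r over the 8 arrays among genes at or above the median level, without predicted genes and small RNAs, and has no p-value. Members and gene lists were chosen with earlier results of these data known, so no list was tested. Named are the 8 members, the sort markers, some of the 2 genes with the smallest p in each list, and the genes most alike; others are said to be named after their values were seen. As alternatives, values were quantile normalized or centred on array medians, dim genes were removed, a gene's rows were averaged, and the fit was given a trended robust variance, array weights, a block for the mouse number or the mean of the T and NK list as a covariate. It was also run without sham mice 2 and 3 and without each array.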

Additional observations from a re-analysis of the deposited data

How the results depend on the processing

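No member passed the adjusted threshold in limma with all arrays or under any of the 17 alternatives; the smallest adjusted p of a member was 0.708. Maf, Adgre1, Ms4a7 and Selenop kept their direction in all 17. Some of the 17 could not change a member's difference: removing dim genes, the trended robust variance and the mouse number block. Averaging a gene's rows could change only those of Maf and Cd9. The direction turned for Cd63, Cd9, Cd81 and Folr2 with the mean of the T and NK list as a covariate (-0.10, -0.12, -0.25 and -0.23) and without sham mice 2 and 3 (-0.14, -0.30, -0.32 and -0.45); the cause was not tested. With single arrays left out the differences ran from -0.038 to 0.19 for Cd63, from -0.15 to 0.34 for Cd9, from -0.27 to 0.32 for Cd81, from -0.10 to 0.66 for Folr2, from 0.40 to 1.15 for Maf, from 0.02 to 0.16 for Adgre1, from 0.04 to 0.55 for Ms4a7 and from -0.37 to -0.07 for Selenop. The members' median difference of 0.11 then ran from -0.01 to 0.28; it was -0.11 with the covariate and -0.22 without sham mice 2 and 3. The number of genes past the threshold ran from 0 to 1; the 1, H2ac15, was called without irradiated mouse 1 and is no member. With quantile normalization the members' differences kept their signs and the median of all genes moved from -0.03 to 0.00. Mice with the same number did not deviate together. The correlations of their deviations from the group means were -0.28, -0.17, -0.18 and -0.14. No pairing by mouse number was visible, but these values share the same few arrays and cannot exclude it. With the mouse number as a replicate block 0 genes passed, and 1065 had an unadjusted p under 0.05 against 1347 without it. The difference of Maf was 0.80 as before, because a balanced block leaves differences unchanged. The protein comparison planned for the tetraspanins was not run. With 4 arrays per group, changes smaller than the intervals given could not be told from 0. The intervals are not adjusted for the number of genes, so larger changes could also miss the threshold.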
